A study of Mus musculus with 12 samples.

Results

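The muscle contractile genes described here are a set of 10 named genes: *Ldb3*, *Myh1*, *Myh2*, *Myh13*, *Ttn*, *Myh11*, *Acta2*, *Tagln*, *Cnn1* and *Des*. They were chosen by their symbols and on earlier values of these same data, because *Ldb3*, *Myh1*, *Myh2* and *Myh13* were higher in one KO group while the smooth muscle genes were not. Of the 10 genes, 7 had a value among the 15838 genes measured, and *Tagln*, *Cnn1* and *Des* were not analysed here. Because the KO effects in males and females chose the genes, those effects are given as a description with no test. Only the difference between the sexes, which the choice did not use, is tested. For *Ldb3*, *Myh1*, *Myh2* and *Myh13* that test could decide little, for reasons given with it.

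The RNAseq data come from 12 libraries of ex vivo corneal endothelium, stripped with its Descemet membrane from mice aged 10 weeks. Male WT, male KO, female WT and female KO mice each contributed 3 libraries. KO mice are *Slc4a11*-/- mice on a C57BL/6 background with a targeted deletion of several exons, and WT mice are their *Slc4a11*+/+ littermates. The study's methods describe the membranes of each mouse processed as a pair and the sample records describe pooled membranes, so the spread between libraries may not be the spread between mice.

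Striated muscle contracts through sarcomeres, in which thick filaments of myosin slide along thin filaments of actin that are anchored at the Z-disc. Smooth muscle has no sarcomeres and uses its own myosin heavy chain, actin and actin-binding proteins such as transgelin and calponin. The corneal endothelium is a single layer of cells that pumps fluid out of the stroma and is not a muscle, while the iris sphincter and dilator lie near it at the front of the eye and the extraocular muscles attach to the outside of the globe.

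The deposited values are a log2 fold change (log2FC), a moderated t and p-values per gene from limma fits by the authors, and a mean level in log2 CPM (read counts scaled to the same total in each library). No value per library is held, which leaves library depth unknown, and the precision of a log2FC is given by its standard error (SE) and its 95% confidence interval. A gene is called when its p, adjusted over all 15838 genes by the Benjamini-Hochberg method, is under 0.05. For KO minus WT in females, which no table gives, the log2FC, SE and p were derived here from the genotype and interaction coefficients. Levels in the 4 groups were estimated from the mean level and the fitted differences and carry no error. *Slc4a11* itself, estimated at 3076 CPM in WT males and 4681 CPM in WT females, fell by 1.83 ± 0.22 in KO males and by 2.89 ± 0.22 in KO females (log2FC ± SE). Markers of corneal endothelium were abundant, with *Col8a2*, a collagen of the Descemet membrane, at a mean of 12.79 log2 CPM. In bulk RNA, fewer cells of a type and less RNA per cell cannot be told apart.

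The promoters of the 4 genes that are higher in male KO are shown because those genes moved together in the values that chose them. They are the 250 bases before the RefSeq start site (GRCm38.p6), read on the strand of the gene, at chr14:34588682-34588931 for *Ldb3* (minus strand) and, on the plus strand, at chr11:67170777-67171026 for *Myh2*, chr11:67199852-67200101 for *Myh1* and chr11:67326853-67327102 for *Myh13*. Capitals mark matches, on either strand, to an E-box (CANNTG), the CArG box, the MEF2 site or a TATA box (TATAAA).
Ldb3: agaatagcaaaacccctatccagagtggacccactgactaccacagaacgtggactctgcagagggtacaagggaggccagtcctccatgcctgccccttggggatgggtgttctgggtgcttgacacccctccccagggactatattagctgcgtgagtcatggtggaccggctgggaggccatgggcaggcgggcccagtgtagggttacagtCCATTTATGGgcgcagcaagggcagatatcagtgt
Myh2: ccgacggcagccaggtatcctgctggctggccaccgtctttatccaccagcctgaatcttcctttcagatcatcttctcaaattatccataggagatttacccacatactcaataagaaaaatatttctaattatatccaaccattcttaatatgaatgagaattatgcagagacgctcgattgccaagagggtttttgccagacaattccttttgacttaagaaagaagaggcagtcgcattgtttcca
Myh1: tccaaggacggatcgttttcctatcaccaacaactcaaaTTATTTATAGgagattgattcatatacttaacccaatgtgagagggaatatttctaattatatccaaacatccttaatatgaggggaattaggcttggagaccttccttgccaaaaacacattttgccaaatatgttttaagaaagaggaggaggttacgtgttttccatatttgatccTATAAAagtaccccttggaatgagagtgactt
Myh13: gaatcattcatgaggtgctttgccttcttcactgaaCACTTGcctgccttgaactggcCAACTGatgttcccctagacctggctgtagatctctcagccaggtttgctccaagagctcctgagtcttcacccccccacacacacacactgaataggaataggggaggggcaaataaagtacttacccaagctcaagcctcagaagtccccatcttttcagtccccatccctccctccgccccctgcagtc

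A CArG box, the site that serum response factor binds, began 35 bases before the *Ldb3* start site shown and 109 bases before a second RefSeq start of the gene, and 1.47% of the 32851 RefSeq promoters of this length held one. The MEF2 site, which belongs to a family of muscle transcription factors, was matched 1 time in *Myh1*, where it overlaps a TATAAA, and 2.92% of all promoters held one. A TATAAA stood 32 bases before the *Myh1* start, a motif held by 12.4% of promoters. The *Myh13* promoter had 2 E-boxes, the site bound by myogenic regulators among many other factors, and 66.2% of all promoters had at least 1. Its window lies inside the gene as GENCODE M21 annotates it, chr11:67321658-67371586. The *Myh1* window ends past the start annotated there, chr11:67200052. No letters of these 4 motifs were matched in the *Myh2* window. The *Myh1* and *Myh2* promoters shared an unbroken run of 21 bases, aatatttctaattatatccaa, beginning 165 bases before the *Myh1* start and 130 bases before the *Myh2* start. The longest run shared by any other pair of *Ldb3*, *Myh1*, *Myh2*, *Myh13* and *Acta2* was 9 bases.

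*Ldb3* encodes a PDZ-LIM protein, also called ZASP or cypher, that binds α-actinin at the Z-disc of striated muscle. It lies at chr14:34526603-34588682 on the minus strand (GRCm38, ENSMUSG00000021798). In males its estimated level was 5.33 CPM without and 17.5 CPM with the knockout, and in females 10.8 CPM without and 10.2 CPM with it. Male WT was thus the lowest group and male KO the highest, with both female groups between them. KO minus WT was 1.71 ± 0.19 on the log2 scale in males (95% confidence interval 1.31 to 2.12), a 3.28-fold higher level. In females it was -0.08 ± 0.19 (-0.49 to 0.33). Subtracting the male from the female effect gave -1.79 ± 0.27.

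The sarcomeric myosin heavy chains *Myh1* and *Myh2* are the fast type 2X and 2A myosins of skeletal muscle, and *Myh13* is the superfast myosin known from extraocular muscle. All 3 stand in a row of myosin genes on the plus strand of chromosome 11. *Myh13* was estimated at 6.17 CPM in WT and 23.2 CPM in KO males, and at 14.3 CPM in WT and 11.3 CPM in KO females. *Myh1* was lower throughout, at 1.36 and 5.97 CPM in males and 3.06 and 2.95 CPM in females. Both genes ranked the groups as *Ldb3* did, from male WT through female KO and female WT to male KO.

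*Myh2* had the same groups at its ends but another order between them. Its level was 8.38 CPM in WT and 31.7 CPM in KO males, and 9.63 CPM in WT and 20.0 CPM in KO females. Both WT groups were the lower ones for this gene, and both KO groups the higher ones.

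**Figure D1:**
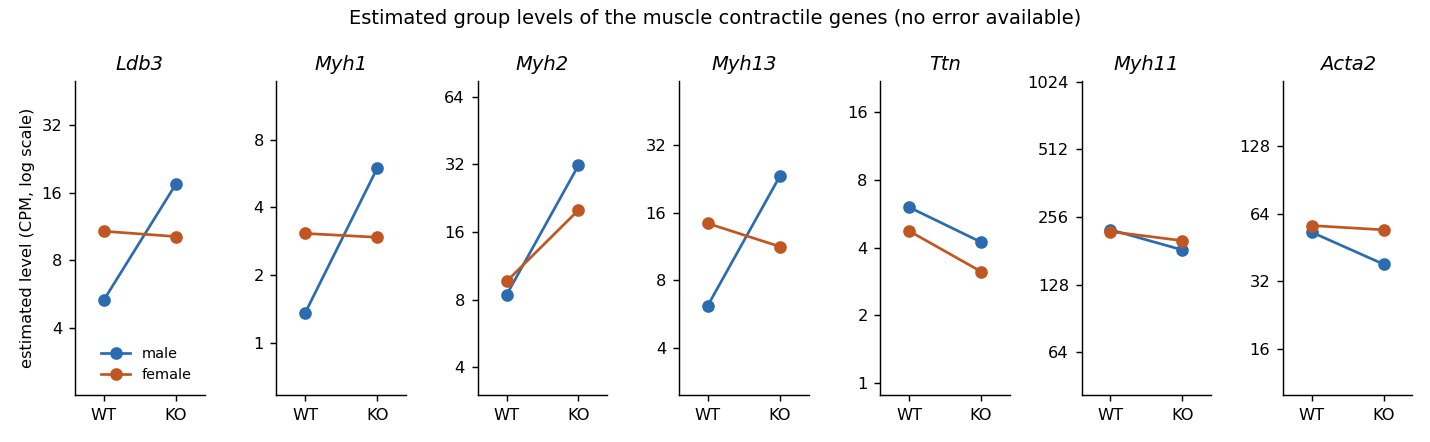
Estimated level in CPM (log scale, a separate range of equal height for each gene) in WT and KO of each sex for the 7 genes with a value; points are fitted group levels without an error. The male line climbs in *Ldb3*, *Myh1*, *Myh2* and *Myh13*, the female line climbs in *Myh2* alone, and *Ttn*, *Myh11* and *Acta2* have no climbing line.

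KO minus WT in males was 1.92 ± 0.22 for *Myh2* (1.44 to 2.40), 1.91 ± 0.29 for *Myh13* (1.28 to 2.54) and 2.14 ± 0.41 for *Myh1* (1.27 to 3.01), which are 3.78-fold, 3.76-fold and 4.40-fold. These 3 intervals and that of *Ldb3* overlap one another. In females the value was 1.06 ± 0.24 for *Myh2* (0.54 to 1.58), a 2.08-fold higher level, but -0.34 ± 0.30 for *Myh13* and -0.06 ± 0.42 for *Myh1*. The interval for *Myh1* in females is wide, from 0.513-fold to 1.80-fold. Subtracting the male from the female effect gave -2.25 ± 0.42 for *Myh13*, -2.20 ± 0.58 for *Myh1* and -0.86 ± 0.33 for *Myh2*.

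In males, 4 of the 7 genes were called higher (*Ldb3*, *Myh1*, *Myh2* and *Myh13*), where 2.3% of all genes were, and none was called lower, where 3.17% of all genes were. In females 1 of the 7, *Myh2*, was called higher, beside 0.474% of all genes, and none lower, beside 0.947%. Its adjusted p in females, 0.0485 as derived here from the limma coefficients, lay just inside the threshold. In the interaction 2 of the 7, *Ldb3* and *Myh13*, were called with a lower effect in females, beside 0.234% of all genes, and none with a higher effect, beside 0.309%. Because these contrasts chose the genes, the shares stand side by side with nothing read from them.

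**Figure D2:**
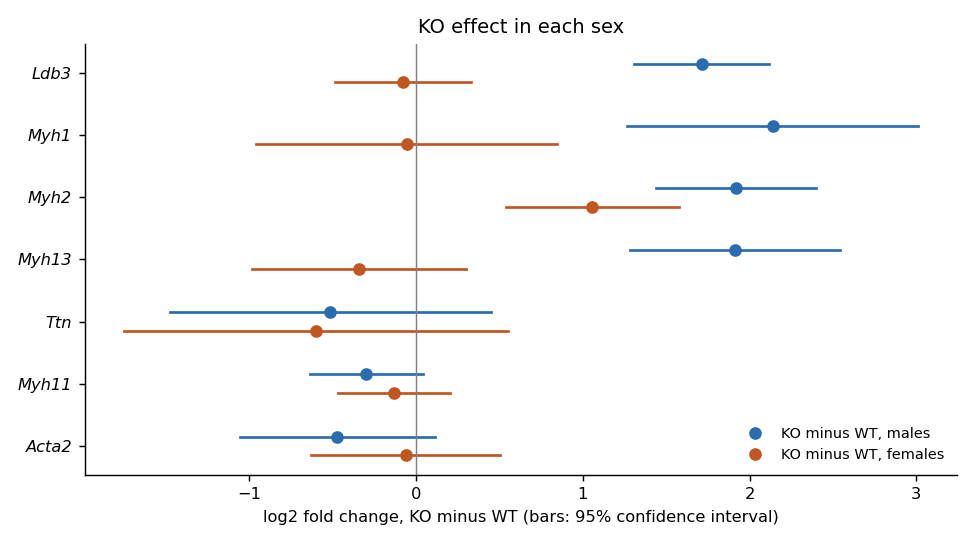
Log2FC of KO minus WT for the 7 genes with a value, in males and females, with 95% confidence intervals as bars. In males the intervals of *Ldb3*, *Myh1*, *Myh2* and *Myh13* lie above 1.2, in females that of *Myh2* alone lies above 0, and those of *Ttn*, *Myh11* and *Acta2* span 0 in both sexes.

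The estimated WT levels of *Ldb3*, *Myh1* and *Myh13* also had different values in the sexes. In WT, females minus males was 1.02 for *Ldb3*, 1.18 for *Myh1* and 1.22 for *Myh13* on the log2 scale, against 0.20 for *Myh2*. In KO the same differences had the opposite sign, at -0.77, -1.02, -1.04 and -0.66. The low level of male WT and the high level of male KO thus both enter the effect in males. These differences carry no error and were not tested. All 4 genes had male WT as the lowest and male KO as the highest group, as had 79.1% of the 364 genes called higher in KO males and 10.6% of all genes.

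*Ttn*, the giant titin that spans from the Z-disc to the middle of the sarcomere, did not share the pattern of the other striated genes. Males had 6.06 CPM in WT and 4.23 CPM in KO, females 4.75 CPM in WT and 3.13 CPM in KO. KO was the lower group in both sexes, by values whose intervals span 0. KO minus WT was -0.52 ± 0.45 in males (-1.48 to 0.45) and -0.60 ± 0.53 in females (-1.75 to 0.55). Its length makes its level per length very small, 0.0378 CPM per kb of annotated exon on average, against 1.65 for *Ldb3*, 2.11 for *Myh2*, 2.00 for *Myh13* and 0.46 for *Myh1*.

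The remaining sarcomere genes were read from 4 lists with 87 genes in all, of which 36 had a value. Genes that define skeletal muscle, such as skeletal actin *Acta1*, muscle creatine kinase *Ckm*, myoglobin *Mb* and the calcium release channel *Ryr1*, are among the 51 not analysed here. None of the 36 was called by limma in males or the interaction, or by the derived p in females. At an unadjusted p under 0.05 there were 9 in males, 5 in females and 1 in the interaction, where 21.9%, 15.9% and 10.2% of all genes were. Their median log2FC was -0.25 in males and -0.22 in females, beside -0.02 and 0.01 over all genes. In males 25 of the 36 lay below 0, and in females 31, beside 52.8% and 49.2% of all genes.

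Among thick filament genes, 7 of 23 had a value, and their median was -0.49 in males. *Myh8*, the perinatal myosin heavy chain of the same cluster, had the highest value, 2.75 ± 0.81 in males and 1.15 in females. Its adjusted p was 0.0647 in males by limma and 0.477 in females as derived here, with a mean of -0.61 log2 CPM. *Myh7b*, a slow-type myosin with the highest mean level of that list, was at -0.49 in males and 0.00 in females. *Myl4*, an atrial and embryonic light chain, was at 0.21 and 0.35. The M-band proteins *Myom1* and *Myom2*, which crosslink thick filaments, had values of -1.57 and -0.93 in males and -1.81 and -1.85 in females, and neither was called.

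Thin filament genes had a value for 6 of 19, with medians of -0.35 in males and -0.14 in females. The tropomyosin *Tpm3*, which many cell types express, was the most abundant at 6.54 log2 CPM and stood at 0.15 in males and 0.20 in females. Cardiac and slow troponin C, *Tnnc1*, was at -0.50 and 0.29. *Neb*, which encodes nebulin along the thin filament, was at -0.19 and -0.48, and the fast troponin T *Tnnt3* at -0.09 and -0.26. No member of the list reached the threshold in any KO contrast.

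Z-disc genes, the neighbours of the *Ldb3* protein, had a value for 11 of 19, with a median of -0.01 in males and -0.16 in females. *Cryab*, a small heat shock protein that binds desmin, was the most abundant, at 7.85 log2 CPM, with -0.01 in males and -0.06 in females. Filamin C, *Flnc*, was at 0.12 in males and -0.86 in females. *Actn2*, the sarcomeric α-actinin to which the *Ldb3* protein binds, was at -1.42 ± 0.42 in males and -1.02 in females. Its adjusted p was 0.0666 in males by limma and 0.257 in females as derived here. Myotilin, *Myot*, was at 0.35 in males and -0.16 in females. The values of *Actn2* thus pointed the other way from those of *Ldb3* in males, without passing the threshold.

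Calcium release and muscle metabolism genes had a value for 12 of 26, with medians of -0.34 in males and -0.31 in females. The most abundant were *Asph*, which encodes junctin and aspartate hydroxylase, at 9.60 log2 CPM, and *Musk*, the kinase of the neuromuscular synapse, at 7.52 log2 CPM. *Asph* was at -0.17 in males and -0.06 in females, and *Musk* at -0.20 and -0.21. The muscle glycogen phosphorylase *Pygm* was at 0.32 and -0.07, and the calcium channel subunit *Cacnb1* at -0.77 and -0.48.

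**Figure D3:**
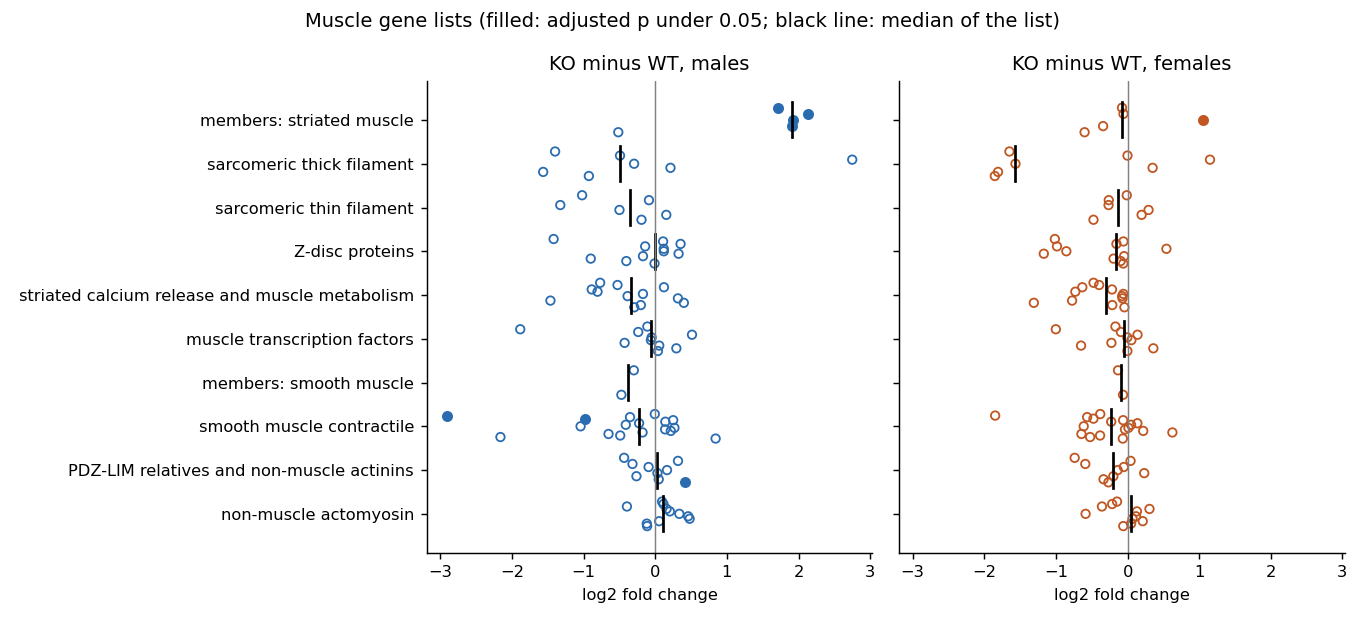
Log2FC of KO minus WT in males (left) and females (right) for each gene with a value in 10 muscle and cytoskeleton lists; each point is a gene, filled where the adjusted p is under 0.05, and black lines are list medians. The 4 filled points of the striated row stand at 1.71 to 2.14 in males, while the other striated lists have no filled point in either sex.

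*Myh11* and *Acta2*, the smooth muscle myosin heavy chain and smooth muscle α-actin, were far more abundant per length than the striated genes, with a mean of 27.1 and 22.7 CPM per kb of exon. *Myh11* (chr16:14194535-14291372, minus strand) was estimated at 224.6 CPM in WT and 182.5 CPM in KO males, and at 220.2 CPM in WT and 200.7 CPM in KO females. The 4 groups were close to one another, with KO the lower in each sex. KO minus WT was -0.30 ± 0.16 in males (-0.64 to 0.04) and -0.13 ± 0.16 in females (-0.47 to 0.20).

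*Acta2* (chr19:34241090-34255590, minus strand) was at 52.8 CPM in WT and 38.1 CPM in KO males, and at 56.6 CPM in WT and 54.2 CPM in KO females. Male KO was the lowest of the 4. KO minus WT was -0.47 ± 0.27 in males (-1.06 to 0.11) and -0.06 ± 0.26 in females (-0.63 to 0.50).

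Of 21 further smooth muscle genes, 17 had a value, and their medians were -0.23 in both males and females. In males 2 were called lower and none higher, beside 3.17% and 2.3% of all genes. *Mylk*, the myosin light chain kinase that starts smooth muscle contraction, fell by 2.91 ± 0.50 in males (adjusted p = 0.006 by limma), and its value in females was -1.85 with an adjusted p of 0.0556. *Smtn*, smoothelin, a marker of contractile smooth muscle, fell by 0.98 ± 0.19 in males (adjusted p = 0.00944), with -0.48 in females (adjusted p = 0.207). No gene of the list was called in females or in the interaction. There 4 and 2 had an unadjusted p under 0.05, beside 15.9% and 10.2% of all genes. That *Mylk* and *Smtn* differed between the sexes was not shown, with adjusted interaction p values of 0.682 and 0.554.

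The most abundant genes of that list are shared with non-muscle cells and showed small values. *Cald1*, the actin-binding caldesmon, was at 0.25 in males and -0.06 in females, *Tpm1* at 0.14 and -0.23, *Tpm2* at -0.23 and 0.14, and the calponin relative *Cnn2* at 0.27 and 0.01. None was called.

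Relatives of *Ldb3* in the PDZ-LIM family were listed together with the non-muscle α-actinins, *Palld* and *Zyx*. Of these 10 genes 9 had a value, with medians of 0.03 in males and -0.20 in females. *Zyx*, zyxin, a LIM protein of focal adhesions, rose by 0.41 ± 0.11 in males (adjusted p = 0.037 by limma) and was at -0.27 in females, with an adjusted interaction p of 0.0718. The other 8 were not called in either sex, while 2.3% of all genes were called higher in males. *Actn4* and *Actn1*, the non-muscle α-actinins, were at -0.26 and 0.03 in males, and the PDZ-LIM gene *Pdlim5* was at -0.09 with *Palld*, palladin, at 0.05.

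Non-muscle actomyosin, 11 genes that all had a value, had medians of 0.11 in males and 0.05 in females with no call in any KO contrast. At an unadjusted p under 0.05 there were 2 in males, 1 in females and 1 in the interaction. The shares of all genes at that p were 21.9%, 15.9% and 10.2%. *Actb*, cytoplasmic actin, was at 0.46 and 0.12, *Myh9*, non-muscle myosin heavy chain, at 0.09 and -0.15, *Myh10* at 0.11 and -0.22, and the kinase *Rock2* at -0.12 and 0.05. Transcription factors of muscle had a value for 10 of 20, among which the myogenic factors *Myod1* and *Myog* are not. None was called in a KO contrast. At an unadjusted p under 0.05 there were 3 in males, 1 in females and 0 in the interaction, beside the same shares. *Srf*, which encodes serum response factor, was outside the 4 most abundant and is named because its site was found before *Ldb3*. It stood at 0.51 in males (adjusted p = 0.0852 by limma) and 0.14 in females. Of the abundant factors, *Tead1* was at 0.04 in males and 0.00 in females, *Mrtfb* at -0.06 and 0.05, and *Mef2d* at -0.24 and -0.09.

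The myosin genes *Myh3*, *Myh2*, *Myh1*, *Myh4*, *Myh8* and *Myh13* lie within 293.3 kb of chromosome 11, and 4 of the 6 had a value. All 4 had a log2FC above 1.9 in males. In females the values of *Myh2* and *Myh8* were above 1 and those of *Myh1* and *Myh13* below 0, which alternate along the row, though the value of *Myh8* was not called. The flanking genes with a value within 100 kb were *Tmem220*, *Adprm*, *Sco1* and *Gas7*, at 0.17, -0.01, 0.42 and -0.71 in males and -0.10, 0.20, 0.03 and -0.74 in females, and none was called. Around *Ldb3*, *Bmpr1a* was at 0.25 in males, *Wapl* at 0.22, *5830448L01Rik* at 0.08 and *Gm17110* at -0.06, and none was called in either sex.

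**Figure D4:**
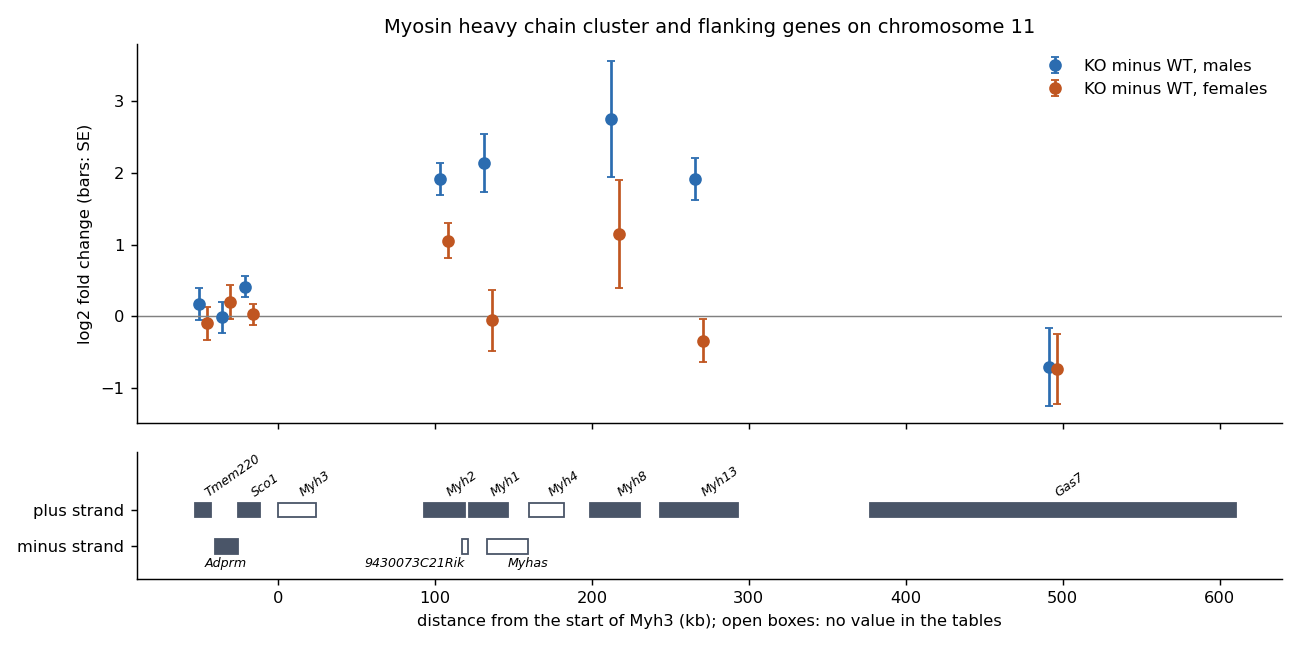
Top: log2FC of KO minus WT with its SE for genes with a value in and around the myosin heavy chain cluster, against the distance from the start of *Myh3* in kb; bottom: gene spans by strand, open where no value was held. Myosin genes stand at 1.91 to 2.75 in males, and the flanking genes at -0.71 to 0.42.

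The myosin genes resemble one another closely in sequence, which bears on how reads can be assigned. Of all windows of the read length, 50 bases, in the longest GENCODE M21 coding transcript, 32.1% of those of *Myh1* and 28.9% of those of *Myh2* also occur in a transcript of another gene. The share was 8.45% for *Myh13* and 0% for *Ldb3*. *Myh1* and *Myh2* share most with each other, 19.7% of the windows of each, and *Myh13* with *Myh8*, 4.86%. How the counter treated reads that match several genes is not given in the sources used here, so values of *Myh1*, *Myh2* and *Myh8* are uncertain to that extent. Antisense genes overlap *Myh2* (*9430073C21Rik*) and *Myh1* (*Myhas*), neither of which had a value. The libraries keep strand, but whether the counting used it is likewise not given.

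The genes most like *Ldb3* were sought by distance over 3 log2 differences, namely KO minus WT in males, the same in females, and female minus male, among genes with a mean of at least 1 CPM. Among the 5 nearest were *Plekhg4* (distance 0.23), *Scd4* (0.28), *Myh13* (0.33) and *Arl4d* (0.34). *Plekhg4* was at 1.87 in males and -0.23 in females, and *Scd4*, a stearoyl-CoA desaturase, at 1.65 and 0.18. For *Myh13* the nearest were *Plekhg4* (0.15), *Ldb3* (0.33), *Myh1* (0.36), *Atp2b2* (0.38) and *Negr1* (0.40). *Atp2b2*, a plasma membrane calcium pump, was at 2.15 in males and -0.04 in females, and *Negr1* at 1.59 and -0.55. Thus, of the 4 higher genes, *Ldb3*, *Myh1* and *Myh13* were near to one another on this scale and *Myh2* was in neither list.

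The difference between the sexes over both genotypes is the contrast that the choice of genes did not use. None of the 7 genes was called in it by limma, with none at an unadjusted p under 0.05, beside 0.0316% of all genes called. Female minus male was 0.12 for *Ldb3* (-0.61 to 0.85, adjusted p = 0.952), 0.09 for *Myh13* (-0.80 to 0.98, adjusted p = 0.972) and 0.08 for *Myh1* (-0.96 to 1.12, adjusted p = 0.978). *Myh2* was at -0.23 (-1.17 to 0.71) and *Ttn* at -0.39 (-1.16 to 0.38). The smooth muscle genes had narrower intervals, 0.05 (-0.21 to 0.32) for *Myh11* and 0.30 (-0.13 to 0.74) for *Acta2*. Each of the 7 intervals spans 0, and a missed threshold does not show that the sexes were alike. For *Ldb3*, *Myh1*, *Myh2* and *Myh13*, chosen for their KO effects, this test could decide little. Their SE in it was large, and their estimated differences between the sexes had opposite signs in WT and KO. No conclusion is drawn from it for these genes.

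The sex table came from another fit than the genotype and interaction tables, since its t and p imply 14.6 degrees of freedom against 13.8. The SE of sex for *Ldb3*, *Myh1*, *Myh2* and *Myh13* was 1.67 to 2.67 times that of the KO effect averaged over the sexes, a ratio of 1.07 at the median of all genes. For *Ttn*, *Myh11* and *Acta2* the ratio was 1.03 to 1.12. Among the 36 further striated genes and the 17 smooth muscle genes none was called by sex, with 2 and 0 at an unadjusted p under 0.05, beside 3.74% of all genes.

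Markers of other cell types that the dissection could carry were described in the same contrasts, by the lists' medians and by levels summed over their genes with a value. The summed level of the 17 smooth muscle genes ran from 3013 to 3253 CPM over the 4 groups. Most of it came from *Cald1*, *Tpm1*, *Tpm2* and *Cnn2*, which non-muscle cells share, with means of 1268, 517, 391 and 283 CPM. The sum therefore says little about the other genes of the list. In males 11 of the 17 lay below 0 and 6 above. Mural cells of vessels (7 of 9 with a value) went from 252.7 CPM in WT to 172.3 CPM in KO males. In females they went from 216.3 CPM in WT to 178.9 CPM in KO. Most of the summed mean level of 199.9 CPM came from *Pdgfrb*, with a mean of 150.8 CPM. The medians of the list were -0.87 in males and -0.46 in females, with 5 and 7 of the 7 below 0. In males *Pdgfrb* was called lower (-0.62) and *Abcc9* higher (2.92), the latter from an estimated 0.45 CPM in WT. Iris pigment markers (8 of 9) had 137.1 CPM in WT and 53.5 CPM in KO males, 126.4 CPM in WT and 63.6 CPM in KO females, with medians of -1.61 and -2.62, and *Gpnmb* and *Mitf* were called lower in males. Nerve and Schwann cell markers (8 of 10) stood at 861.2 CPM in WT and 975.0 CPM in KO males. In females they stood at 908.5 CPM in WT and 798.5 CPM in KO. The gene with the highest mean, 9.63 log2 CPM, held most of the summed mean level of 881.2 CPM. The medians of the list were -0.30 in males and -0.26 in females, with 5 and 6 of the 8 below 0. No nerve marker was called by limma in males or by the derived p in females. At an unadjusted p under 0.05 there were 3 in males and 1 in females. Over all genes 21.9% and 15.9% were under 0.05, and 3.17% were called lower and 2.3% higher in males.

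Vascular endothelium (7 of 8) had 113.7 CPM in WT and 91.3 CPM in KO males. In females it had 112.6 CPM in WT and 57.4 CPM in KO. The gene with the highest mean, 6.36 log2 CPM, held most of the summed mean level of 87.8 CPM, and 3 had a mean under 1 CPM. The medians of the list were -3.20 in males and -1.52 in females, with all 7 below 0 in each sex. In each sex 1 gene was called lower, *Emcn* in males and *Kdr* in females. Stroma markers (10 of 11) had medians of -0.46 in males and -0.89 in females, epithelium markers (11 of 11) of -0.99 and -1.04, and in each list 1 gene was called lower in each sex, *Aldh1a1* and *Aldh3a1*. Leukocyte markers (10 of 10) had medians of -0.86 and 0.28 and lens markers (7 of 8) of -1.75 and -1.53. None of these was called by limma in males or by the derived p in females. At an unadjusted p under 0.05 there were 4 leukocyte markers in males, 3 in females and no lens marker. Over all genes 21.9% in males and 15.9% in females were under 0.05, and 3.17% and 0.947% were called lower. All of these lists had a median below 0 in males, as had the corneal endothelium markers (-0.16), beside -0.02 over all genes. The part of cell makeup in the values of the muscle genes was not tested.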

How the data were processed

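RNAseq of 12 libraries (paired-end, stranded total RNA, 50-base reads) was processed by the authors, who aligned reads to GRCm38 with Hisat2, normalized CPM by TMM and fitted limma with voom to genotype, sex and their interaction. The authors deposited 3 tables of those comparisons (genotype, sex, interaction) with a log2 fold change and mean log2 CPM, a moderated t, which is a score, and p-values with their adjustment. Tool versions, the counter and the gene annotation are not given in the sources used here. These tables hold comparisons and no values per library, and were used because the genes are defined by them.

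The ratio of interaction to genotype SE had a median of 1.42, so the genotype coefficient is the KO effect in 1 sex. It was taken as that in males, since the 4 Y-linked genes looked up had an SE of 0.26 to 0.37 in it and of 2.08 to 3.01 in the other sex, and all 4 lay below 0 in the sex table, read as female minus male. The effect in females is genotype plus interaction, its squared SE is the difference of both squared SE, and its p was adjusted over 15838 genes. The derivation was tested on simulated data with limma 3.58.1. Group levels combine the mean with the 3 coefficients, which mixes 2 fits. GENCODE M21 (GRCm38) gave positions for 15824 of the 15838 genes, and RefSeq promoters matched 8 of the 10 genes. Python 3 libraries scipy and pandas made all other values.

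The genes and lists were chosen with earlier results of these data known. Genes named are the 10 genes, listed muscle genes called in a KO contrast, up to 4 of each list with the highest mean, the 5 genes nearest to *Ldb3* and to *Myh13*, neighbours within 100 kb, *Slc4a11*, and at most 3 markers of each other cell type. Named outside this rule, after values were seen, are *Srf*, *Abcc9*, *Emcn*, *Aldh1a1* and some genes without a value. Under the rule, 2 genes are not reported here. Alternatives changed the adjustment, the lowest mean level, a fold threshold and the SE in females.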

Additional observations from a re-analysis of the deposited data

Results flagged for a closer look

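Of 104 muscle genes, neighbours and genes like *Ldb3* or *Myh13* that were looked at for a KO effect that differs between the sexes, 3 had an adjusted interaction p under 0.05 by limma, beside 0.543% of all genes. *Ldb3* had an effect in females minus that in males of -1.79 (adjusted p = 0.0136), with 1.71 in males and -0.08 in females. *Myh13* had -2.25 (adjusted p = 0.0311), with 1.91 in males and -0.34 in females. *Scd4*, named for its nearness to *Ldb3* over these same differences, had -1.46 (adjusted p = 0.0378), with 1.65 in males and 0.18 in females. All 3 were picked on these contrasts, so the p values are a description.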

How the results depend on the processing

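Genes called over the whole table numbered 866 in males, 225 in females, 86 in the interaction and 5 by sex. Under Benjamini-Yekutieli adjustment they numbered 123, 47, 0 and 0, and under Holm 46 in males, 26 in females and 2 in the interaction. One adjustment over the 3 tables together left 401 in males. With a log2FC above 1 in size there were 302 in males and 93 in females. With the SE of males used for females there were 369 in females, and keeping genes of at least 10 CPM left 0 by sex. The remaining counts under these alternatives were within 1.5 times the first.

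The KO contrasts chose the 4 genes called in males, so whether their calls were kept is a description with nothing read from it. Of these 4 genes, *Ldb3* and *Myh2* kept the male call under each alternative. *Myh1* lost it under Benjamini-Yekutieli and Holm and is not among the genes of at least 10 CPM, and *Myh13* under Holm. *Myh2* in females, and *Ldb3* and *Myh13* in the interaction, lost it under both. *Mylk* and *Smtn* lost their male calls under both as well, and *Zyx* under these and the joint adjustment. *Smtn* and *Zyx* also have a log2FC below 1 in size. *Mylk* in females gained a call with a mean of at least 10 CPM (adjusted p = 0.0375), and *Zyx* in the interaction with that mean (0.047) and the joint adjustment (0.0483). No log2FC changed sign, since these alternatives leave it as it is. No paired analysis was possible because the tables carry no values per library, for which reason no replicate could be left out, and 1 library that decides a value could not be seen.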
